A study of Homo sapiens with 14 samples.

Results

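The early transcript response of human fibroblasts to 2'3'-dideoxycytidine (ddC) was described from 3 libraries of IMR90 cells after 24 h in 20 uM ddC and 2 libraries of untreated IMR90 cells. These 5 libraries were chosen by their labels from the 14 of the series, whose other 9 cover 48, 72 and 96 h in ddC, 3 libraries each. IMR90 is a line of fetal lung fibroblasts, so every library comes from 1 line. The untreated cells received vehicle, which was water. Their labelled time is 4 days, whereas the series' design text places them at 0 h, so the time in culture and the exposure to ddC cannot be told apart in this comparison. Nothing in the labels says that replicates came from separate cultures. The p-values of the fit to all 14 libraries therefore measure the spread between libraries of the same group, which may be technical. Polyadenylated RNA was sequenced and the authors deposited raw counts per gene.

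ddC is a cytidine analogue that lacks the hydroxyl group a DNA polymerase needs to extend a chain. Cells take it up through nucleoside transporters and phosphorylate it, beginning with deoxycytidine kinase, and the triphosphate is a good substrate of the mitochondrial DNA polymerase gamma, so ddC is widely used to stop mtDNA replication and deplete mtDNA. Fibroblasts answer several kinds of stress with shared programmes: p53 induces genes of cell cycle arrest and apoptosis, E2F factors drive the genes of S-phase entry, and the translation factor eIF2, when phosphorylated, raises ATF4 and its amino acid genes.

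The 5 libraries held 9398703 to 11473124 counts, and 13371 of 27142 genes passed the filter on low counts and were tested. The table holds none of the 15 genes of the mitochondrial chromosome that were searched for, so mtDNA transcripts were not analysed here. The summed level of 12 fibroblast markers was 35508 to 39883 CPM (counts scaled to 1000000 per library) at 24 h. In untreated cells it was 35662 and 36365 CPM. Some markers of other cell types (CDH1, KRT5 and SFTPC of epithelium, PECAM1 and CDH5 of endothelium, CD3E of blood) were at 0 in all 5 libraries, and others were not. The summed epithelial markers ran from 56.7 to 64.7 CPM at 24 h, against 60.1 CPM in both untreated libraries, with 4 of 9 markers at 0 throughout. The endothelial sum ran from 43.8 to 53.4 CPM at 24 h, against 51.0 and 43.6 CPM, with 2 of 8 at 0, and the blood cell sum from 49.1 to 54.2 CPM, against 53.9 and 51.7 CPM, also with 2 of 8 at 0. KRT18 (39.47 to 48.32 CPM over the 5 libraries), TEK (37.85 to 45.66 CPM) and CD68 (49.05 to 53.96 CPM) made up most of the epithelial, endothelial and blood cell sums. Smooth muscle markers are given with the contractile genes below. Libraries of 1 group differed from each other about as much as from the other group: the chi-square of counts per degree of freedom, which is near 1 for counting noise alone, was 4.38 to 10.9 between 24 h libraries, 2.51 to 9.29 between 24 h and untreated libraries, and 3.56 between the untreated libraries. Part of that spread lay in nuclear-retained long noncoding RNAs. MALAT1 stood at 242, 356 and 52.2 CPM at 24 h, against 95.1 and 271 CPM in untreated cells, so that it was low in replicate 3 at 24 h and in untreated replicate 1.

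No gene passed the test at 24 h. edgeR's quasi-likelihood test with Benjamini-Hochberg adjustment called 0 of 13371 genes (0.0%) at an adjusted p under 0.05, and 457 genes (3.42%) had an unadjusted p under 0.05, 234 of them (1.75%) higher and 223 (1.67%) lower at 24 h. That 3.42% is below the share which a threshold of 0.05 gives when no gene differs. The smallest adjusted p was 0.378, for CDKN1A. DESeq2 called CDKN1A alone, with an adjusted p of 0.00456, and limma-voom called 0 genes with 444 at an unadjusted p under 0.05. Differences were small throughout. Among the 11990 genes whose average log2 CPM reached 1, the median size of the fitted log2 fold change was 0.066, 66.8% lay within 0.1 of no change, and 30 were higher and 10 lower by more than 1.5-fold. The consistency of the libraries was therefore described by separation: a gene was counted as separated when no treated library overlapped either untreated one in CPM, with all 3 on the same side. This held for 2127 genes (15.9%) in all: 1043 genes (7.8%) on the higher side and 1084 (8.11%) on the lower side. These shares over all genes are the background for the gene lists that follow.

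Of 32 lists of genes with a known role, 8 had a mean level whose 24 h libraries did not overlap the untreated ones, 5 of them higher at 24 h (p53 targets, interferon-stimulated genes, ATF4 targets, fatty acid oxidation and hypoxia response) and 3 lower (DNA replication and G1/S, DNA damage repair, ribosome biogenesis). Of single genes, 15.9% were separated in either direction, and with 3 against 2 libraries separation is common from the order of the libraries alone. A list mean can therefore also separate without a shift particular to the list. Whether 8 of 32 lists exceeds such a background was not tested. The 2 largest medians among lists of more than 4 genes were those of p53 targets and DNA replication. The median fitted log2 fold change was 0.165 over the tested p53 targets and -0.121 over the DNA replication and G1/S genes, while over all tested genes it was 0.005. Each of the 3 libraries at 24 h gave both shifts. Their medians against the untreated mean were 0.169, 0.171 and 0.201 for p53 targets and -0.072, -0.162 and -0.138 for DNA replication genes, with -0.041 and -0.020 between the untreated libraries (replicate 2 minus replicate 1). No p was computed over a list, since the lists were chosen with results of these data known.

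**Figure D1:**
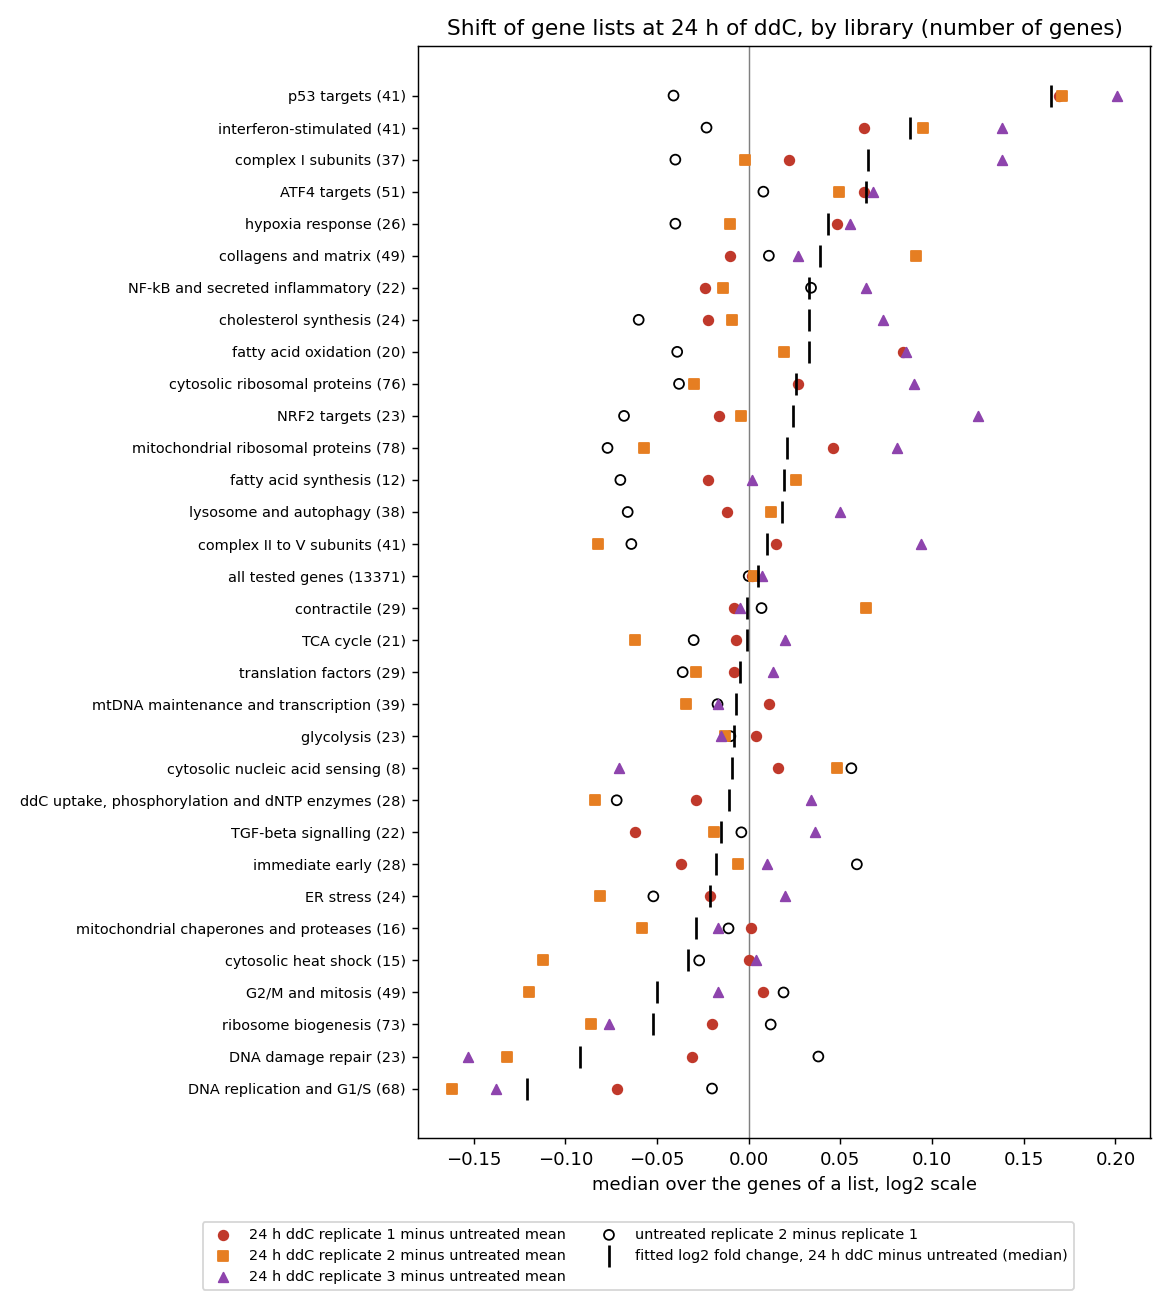
Median log2 difference of 31 gene lists and of all tested genes at 24 h of ddC, with the number of tested genes in brackets; coloured points are the 3 libraries at 24 h against the mean of the untreated libraries, open circles the difference between the untreated libraries, and bars the median fitted log2 fold change. The 3 points of the p53 targets sit between 0.169 and 0.201 and those of DNA replication and G1/S between -0.162 and -0.072, whereas most other lists have points on both sides of 0. The list of 4 nuclear-retained RNAs is left out because its points (0.501, 1.05 and -1.47) exceed the axis.

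p53 targets lay higher in all 3 libraries. Of 41 tested members, 38 had a fitted fold change above 0, where the share over all genes was 51.9%. Separated members were 20 higher and 0 lower, beside 7.8% and 8.11% of all genes. In the edgeR quasi-likelihood test 18 had an unadjusted p under 0.05 on the higher side and 0 on the lower, beside 1.75% and 1.67% of all genes. That test called no member at an adjusted p under 0.05. The other 2 listed genes, SFN and ABCA12, had 4 and 6 counts in all at 24 h, against 3 and 2 in untreated cells, and were not tested. CDKN1A (NM_001220778, chromosome 6, 36646487 to 36655116, hg19) encodes p21, the cyclin-dependent kinase inhibitor through which p53 halts the cell cycle. It stood at 527, 602 and 634 CPM at 24 h, against 450 and 430 CPM in untreated cells, a mean of 588 ± 55.2 against 440 ± 14.5 CPM (SD, 3 and 2 libraries) and a fitted log2 fold change of 0.42 ± 0.08 (SE). All 3 treated libraries lay above both untreated ones. Its adjusted p was 0.378 in edgeR's quasi-likelihood test of all 14 libraries and ran from 1.2e-05 to 1.0 over 12 other analyses. The 4 that passed the threshold were DESeq2, the fit without a filter, the fit with a nuclear RNA score and the fit without 24 h replicate 1 (adjusted p = 0.029).

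The 2 largest fold changes of the list were those of BBC3, of the apoptosis group, and FDXR, of the metabolism and stress group. BBC3 (PUMA, a BH3-only protein that triggers apoptosis; chromosome 19, 47724079 to 47736023, hg19) stood at 9.64, 10.1 and 9.89 CPM at 24 h, against 5.81 and 6.97 CPM, with a fitted log2 fold change of 0.63 ± 0.15 (SE). FDXR (ferredoxin reductase of the mitochondrial matrix; chromosome 17, 72858619 to 72869156, hg19) stood at 20.7, 24.1 and 22.3 CPM, against 15.1 and 15.4 CPM, a log2 fold change of 0.55 ± 0.12. Neither gene's groups overlapped, and the 24 h level of BBC3 varied less between libraries (SD 0.236 CPM) than the untreated one (SD 0.817 CPM). BTG2, an antiproliferative co-regulator, stood at 14.1, 18.1 and 16.5 CPM at 24 h, against 10.5 and 12.3 CPM (log2 fold change 0.52). GDF15, a secreted stress cytokine that ATF4 also induces, stood at 18.7, 24.0 and 25.4 CPM, against 16.5 and 15.3 CPM (0.52). SESN1, a sestrin that restrains mTORC1, stood at 17.2, 17.3 and 18.1 CPM, against 14.1 and 12.4 CPM (0.40). For each of these the lowest treated library lay above the higher untreated one.

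**Figure D2:**
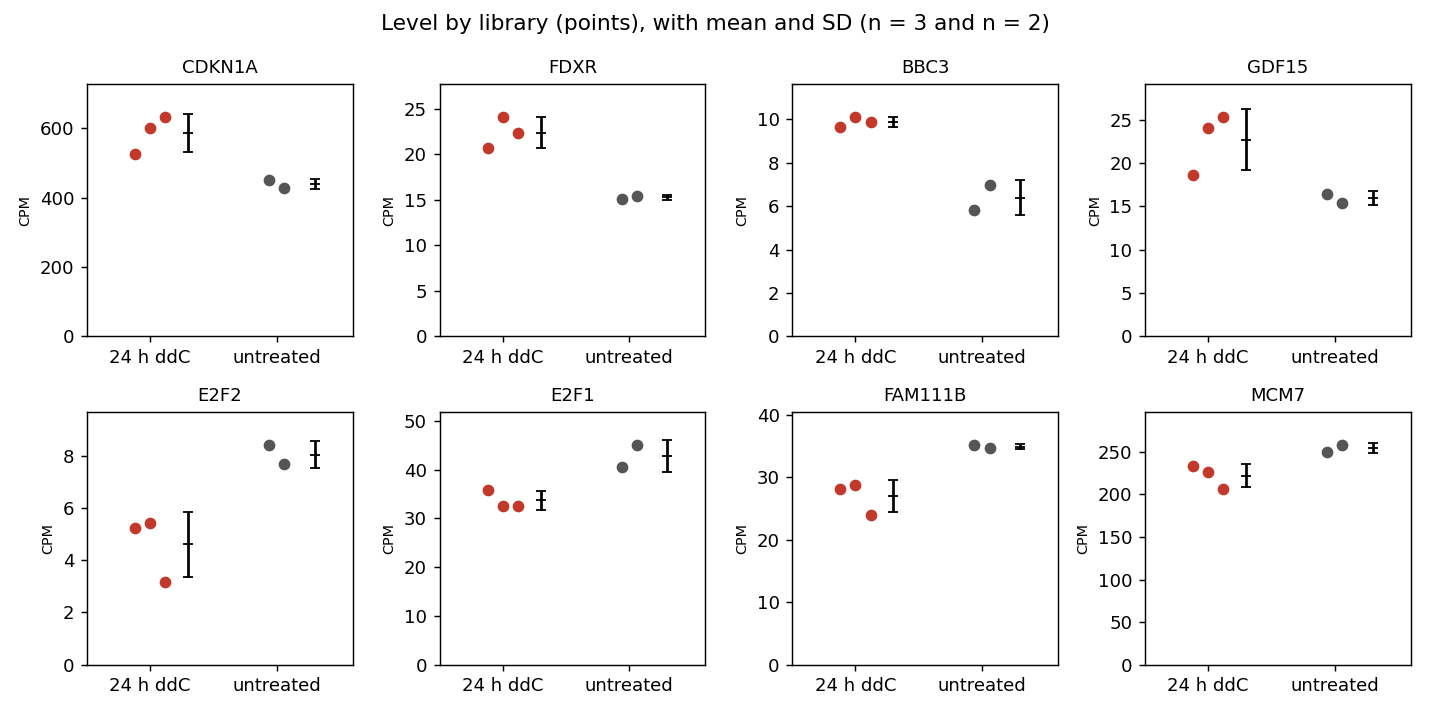
Level in CPM of 8 genes in each library at 24 h of ddC (left in each panel, 3 libraries) and in untreated cells (right, 2 libraries), with the mean and SD beside the points and every axis starting at 0. CDKN1A, FDXR, BBC3 and GDF15 lie higher and E2F2, E2F1, FAM111B and MCM7 lower at 24 h, and in none of the 8 panels do the groups overlap.

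By role, all 6 tested genes of p53 feedback had fold changes above 0 (median 0.189, 4 separated), among them MDM2, the ligase that degrades p53, at 109, 110 and 103 CPM at 24 h, against 93.7 and 99.1 CPM. The 6 genes of cell cycle arrest had a median of 0.179 with 3 separated, the 12 of metabolism and stress 0.174 with 5 separated, the 5 of DNA repair and dNTP supply 0.141 with 2 separated, and the 12 of apoptosis 0.128 with 6 separated. Within the apoptotic group the fold changes spread widely. TNFRSF10B, a death receptor, stood at 209, 217 and 208 CPM at 24 h, against 196 and 191 CPM, and BAX, which permeabilises the mitochondrial outer membrane, at 100, 111 and 106 CPM, against 95.9 and 97.2 CPM. PMAIP1 (NOXA) overlapped, with 42.1, 40.4 and 46.5 CPM, against 42.9 and 37.5 CPM. ZMAT3, TIGAR and PPM1D also overlapped, with log2 fold changes of 0.09, 0.08 and 0.16. RRM2B, the p53-inducible subunit of ribonucleotide reductase that supplies dNTPs to mitochondria, stood at 58.3, 48.7 and 52.0 CPM at 24 h, against 51.2 and 42.3 CPM, so that 1 treated library lay between the untreated ones. The 3 members below 0 were PERP, POLH and TNFRSF10C, all with overlapping libraries.

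**Figure D3:**
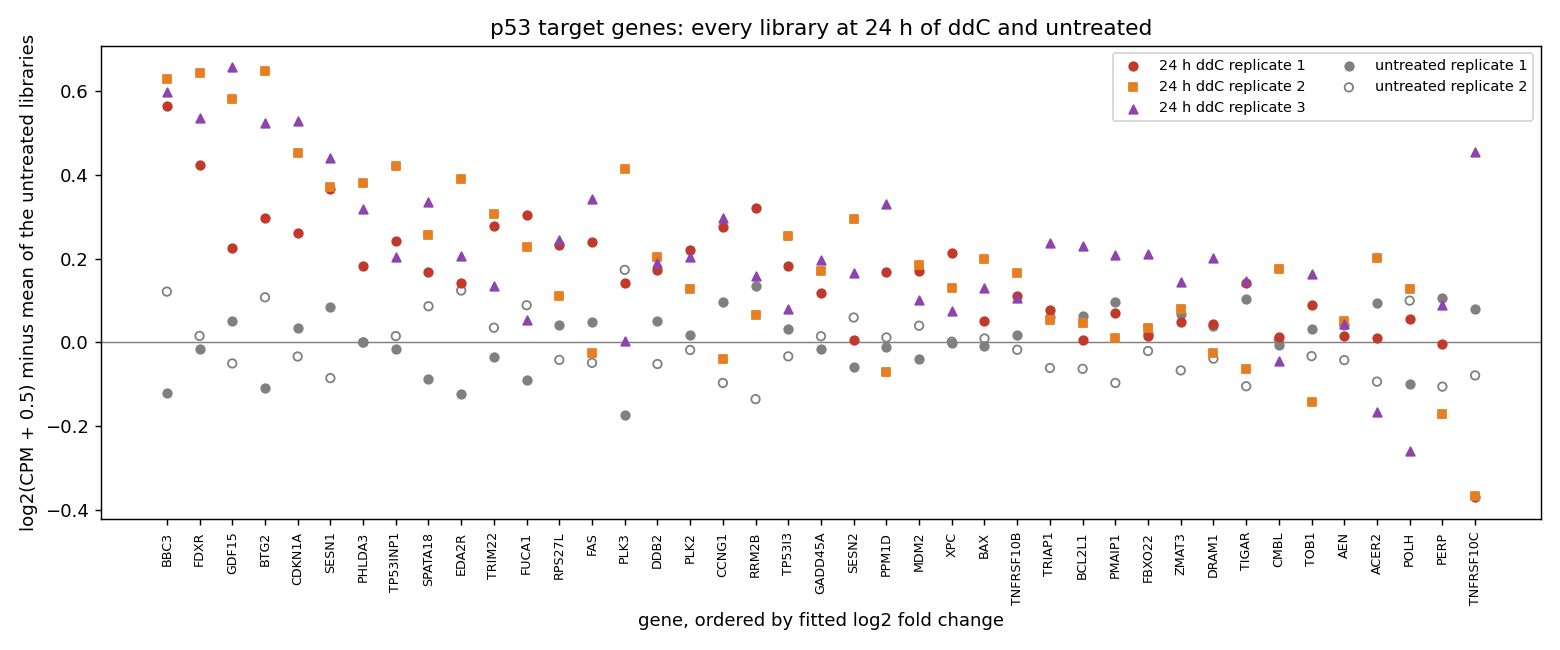
Each of the 41 tested p53 targets in every library, as log2(CPM + 0.5) minus the mean of the 2 untreated libraries, ordered by fitted log2 fold change; coloured points are the 3 libraries at 24 h of ddC and grey points the untreated ones. From BBC3 on the left the coloured points clear the grey ones in 20 genes, and at the right end PERP, POLH and TNFRSF10C have points on both sides of 0.

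The genes of DNA replication and G1/S entry lay on the other side. Of 68 tested members, which are all that were listed, 63 had a fold change below 0, against 48.1% of all genes. Separated members were 33 lower and 0 higher, beside backgrounds of 8.11% and 7.8%. In the edgeR quasi-likelihood test 21 had an unadjusted p under 0.05, all on the lower side, beside 1.67% of all genes. That test called none at an adjusted p under 0.05. In bulk RNA, fewer cycling cells and less transcript per cell cannot be told apart. E2F2, an activator of S-phase genes, had the largest fold change of the list. The gene (chromosome 1, 23832920 to 23857712, hg19) stood at 5.24, 5.42 and 3.18 CPM at 24 h, against 8.41 and 7.67 CPM in untreated cells, a fitted log2 fold change of -0.81 ± 0.19 (SE). E2F1 (chromosome 20, 32263292 to 32274210, hg19) stood at 35.9, 32.6 and 32.5 CPM, against 40.5 and 45.1 CPM, a log2 fold change of -0.35 ± 0.09. FAM111B, a serine protease gene with a peak in S phase, stood at 28.2, 28.7 and 24.0 CPM, against 35.2 and 34.7 CPM (-0.37 ± 0.10). In all 3 the libraries at 24 h lay below both untreated libraries. E2F3, by contrast, overlapped, with 34.3, 36.9 and 35.5 CPM at 24 h, against 38.5 and 35.2 CPM.

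The S-phase entry group of 20 genes had a median of -0.135 with 12 separated lower. CDC25A, the phosphatase that activates CDK2, stood at 27.3, 25.1 and 24.5 CPM at 24 h, against 32.3 and 30.6 CPM, and CCNE2, which encodes cyclin E2, at 16.98, 16.35 and 16.52 CPM, against 21.6 and 18.5 CPM. CCNE1 was the exception of the group, with 8.28, 10.8 and 8.57 CPM, against 9.19 and 7.58 CPM, and a log2 fold change of 0.14. CCND1, the mitogen-responsive cyclin D1, stood at 679, 662 and 682 CPM at 24 h, against 733 and 723 CPM, a log2 fold change of -0.11 ± 0.05 (SE) with separated libraries. The thymidylate genes TYMS (-0.03) and TK1 (0.00) and the kinase CDK2 (-0.02) had overlapping libraries.

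The 20 genes of the replicative helicase and its loading had a median of -0.177, and 18 lay below 0. MCM7 stood at 233, 226 and 207 CPM at 24 h, against 250 and 258 CPM, a log2 fold change of -0.20 ± 0.06 (SE), and MCM6 at 96.3, 85.2 and 89.7 CPM, against 103 CPM in both untreated libraries. These subunits of the MCM2-7 helicase open the double strand at the fork. MCM2, MCM4 and MCM5 were separated as well (-0.18, -0.18 and -0.22), whereas MCM3 overlapped because 1 treated library, at 140 CPM, exceeded the lower untreated one at 139 CPM. CDT1 and ORC1, which license origins, were at 0.05 and 0.02. The 28 polymerase and fork genes had a smaller median of -0.107 with 11 separated lower, and PCNA, the sliding clamp and itself a p53 target, stood at 201, 171 and 196 CPM at 24 h, against 191 and 178 CPM.

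**Figure D4:**
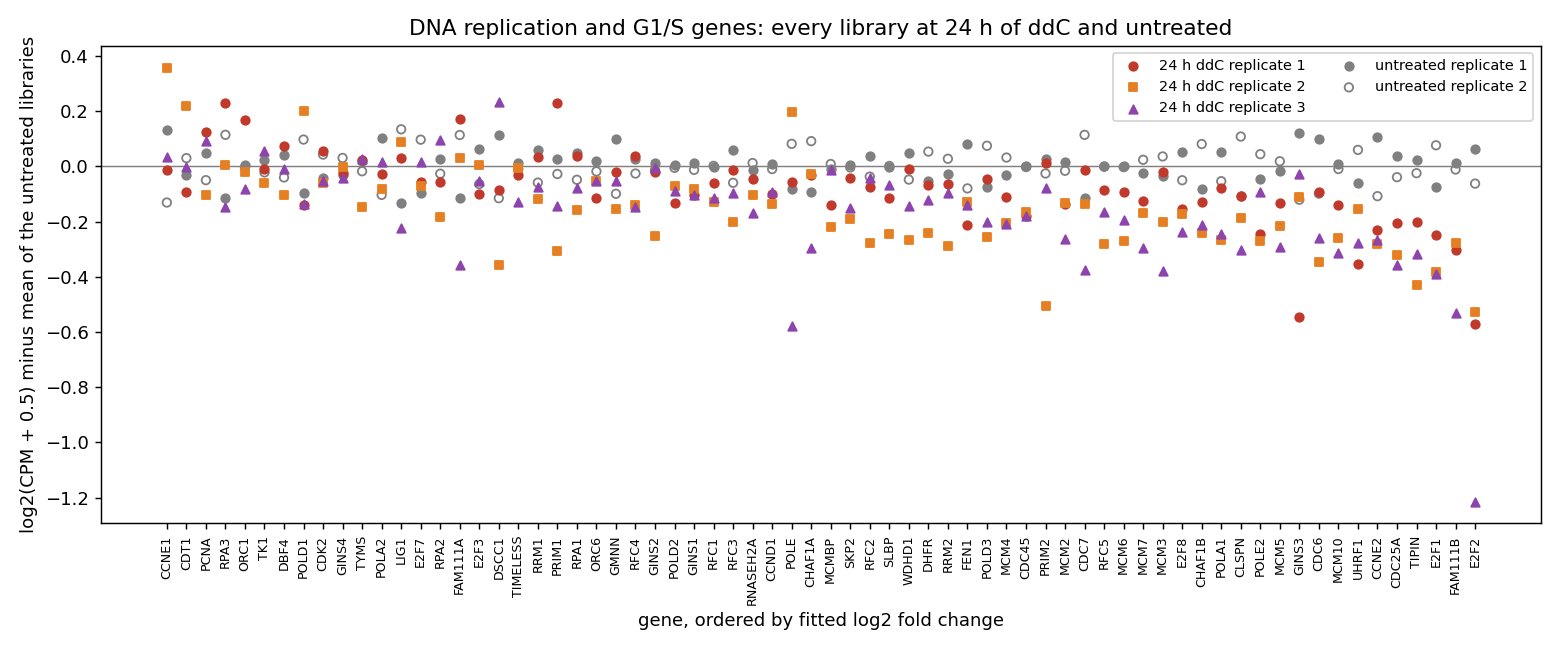
Each of the 68 DNA replication and G1/S genes in every library, as log2(CPM + 0.5) minus the mean of the 2 untreated libraries, ordered by fitted log2 fold change; coloured points are the 3 libraries at 24 h of ddC and grey points the untreated ones. The coloured points drop away from the grey ones towards FAM111B and E2F2 at the right, where 1 library of E2F2 lies lowest, and they mix with the grey ones at CCNE1, CDT1 and PCNA on the left.

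The promoters of some of these genes, but not of most, share a short sequence. E2F factors bind a GC-rich octamer, and the letters TTTCCCGC, TTTCGCGC, TTTGCCGC and TTTGGCGC were searched on both strands in RefSeq windows of 300 bases around each gene's start (GRCh38.p14). An octamer was present in 23 of 56 matched DNA replication and G1/S promoters (41.1%), in 6 of 20 DNA damage repair promoters, in 5.43% of the promoters of tested genes and in 3.33% of all promoters in the table. The promoters below, 250 bases each and ending 1 base before the start, are shown because 4 carry octamers of genes named above and the last carries the only p53 motif match among the 3 leading p53 targets. Capitals mark the E2F octamers in the first 4 and the p53 decamer in FDXR; MCM6 also holds a p53 decamer near its upstream end, which is left in lower case. The coordinates, all on GRCh38.p14 and on the minus strand, are chr20:33686386-33686635 for E2F1, chr1:23531234-23531483 for E2F2, chr7:100101398-100101647 for MCM7, chr2:135876444-135876693 for MCM6 and chr17:74872995-74873244 for FDXR.
E2F1: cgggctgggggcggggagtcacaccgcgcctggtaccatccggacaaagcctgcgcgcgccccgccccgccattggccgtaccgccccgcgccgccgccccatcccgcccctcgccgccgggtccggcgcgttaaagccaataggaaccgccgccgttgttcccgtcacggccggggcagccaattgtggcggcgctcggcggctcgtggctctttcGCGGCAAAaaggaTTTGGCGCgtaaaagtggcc
E2F2: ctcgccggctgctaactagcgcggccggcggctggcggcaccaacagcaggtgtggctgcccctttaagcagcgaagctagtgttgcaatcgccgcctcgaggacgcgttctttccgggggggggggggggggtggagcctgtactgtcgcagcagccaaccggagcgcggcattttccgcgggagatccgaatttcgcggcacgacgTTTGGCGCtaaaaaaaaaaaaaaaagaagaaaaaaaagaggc
MCM7: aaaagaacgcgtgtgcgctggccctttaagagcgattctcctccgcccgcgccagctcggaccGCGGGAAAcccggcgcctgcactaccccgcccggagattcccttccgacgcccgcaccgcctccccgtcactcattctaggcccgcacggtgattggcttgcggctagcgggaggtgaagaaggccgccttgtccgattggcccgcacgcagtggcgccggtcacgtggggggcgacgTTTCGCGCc
MCM6: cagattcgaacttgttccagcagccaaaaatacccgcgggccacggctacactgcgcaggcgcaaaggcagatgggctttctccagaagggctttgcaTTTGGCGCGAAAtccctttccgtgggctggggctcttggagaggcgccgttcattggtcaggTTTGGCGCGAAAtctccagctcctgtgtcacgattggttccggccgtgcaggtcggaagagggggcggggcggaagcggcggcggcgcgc
FDXR: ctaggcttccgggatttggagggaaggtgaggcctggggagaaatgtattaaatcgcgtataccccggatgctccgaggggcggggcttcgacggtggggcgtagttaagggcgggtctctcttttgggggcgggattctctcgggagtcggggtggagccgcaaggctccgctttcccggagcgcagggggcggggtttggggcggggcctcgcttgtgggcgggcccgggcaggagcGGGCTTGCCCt
In E2F1 the octamers begin 33 and 20 bases before the start, in opposite orientations, and in E2F2 a single one begins 42 bases before it. The MCM6 promoter holds 2 copies of a stretch in which octamers of both strands overlap. Not every member carried the letters, and the 33 matched DNA replication genes without an octamer in the window still had a median log2 fold change of -0.101 with 15 separated lower, while the 23 with one had -0.187 and 11. Over all tested genes with a matched promoter, the 577 with an octamer had a median log2 fold change of -0.013 and 12.8% separated lower, where the share over tested genes with a promoter was 8.23%. Leaving out members of the DNA replication, DNA damage repair and G2/M lists, 545 genes remained, with -0.009 and 11.2%. The p53 decamer was present in 4 of 32 matched p53 target promoters (12.5%) and in 5.18% of the promoters of tested genes. Its share in the other lists ran from 0.0% to 11.1% (cytosolic ribosomal proteins and cholesterol synthesis). The 551 tested genes with a decamer had a median log2 fold change of 0.015. Of them 9.07% were separated higher, where the share over tested genes with a promoter was 7.82%. FDXR holds the decamer 11 bases before the start, and CDKN1A and BBC3 hold none in this window. A match is a description of letters and not a site.

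DNA damage repair genes followed the replication genes at a lower consistency. Of 23 genes, 21 lay below 0, against 48.1% of all genes, with a median of -0.092. Members separated lower were 6 and higher 1, beside 8.11% and 7.8% of all genes. XRCC2, of homologous recombination, stood at 9.64, 10.5 and 8.30 CPM at 24 h, against 11.7 and 12.8 CPM, and MSH6, of mismatch repair, at 100, 95.4 and 98.0 CPM, against 109 CPM in both untreated libraries. CHEK2, a checkpoint kinase, was the separated member on the higher side, with 15.3, 15.5 and 14.3 CPM, against 12.1 and 13.1 CPM. Replicate 1 at 24 h gave a smaller list median (-0.031) than replicates 2 and 3 (-0.132 and -0.153).

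G2/M and mitosis genes did not shift in every library. Over 49 genes the median was -0.050, but the 3 libraries gave 0.008, -0.120 and -0.017, and their mean levels overlapped those of the untreated libraries. Separated members were 10 lower and 0 higher, beside 8.11% and 7.8% of all genes. MKI67, the proliferation marker, stood at 354, 372 and 286 CPM at 24 h, against 385 and 450 CPM, while the mitotic regulators UBE2C and CDC25C had log2 fold changes of 0.09 each with overlapping libraries. The CHR element TTTGAA, through which the DREAM complex represses late cell cycle genes, was present in 28 of 41 matched promoters of this list (68.3%) and in 9.7% of promoters of tested genes.

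Ribosome biogenesis genes were lower by a small amount. Of 73 genes 57 lay below 0, against 48.1% of all genes, with a median of -0.052. Members separated lower were 17 and higher 0, beside 8.11% and 7.8% of all genes. RRP12, needed to export the ribosomal subunits, stood at 29.6, 31.6 and 24.6 CPM at 24 h, against 35.5 and 34.0 CPM, and NCL, the abundant nucleolar protein nucleolin, at 960, 886 and 928 CPM, against 997 and 993 CPM. The library medians were -0.020, -0.086 and -0.076. The ribosomal proteins themselves had a median of 0.026, with 2 members separated higher and 1 lower among 76 tested. Counts on ribosomal protein genes are uncertain, since many have near-identical processed copies that can take their reads.

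ATF4 targets lay slightly higher, led by genes that other pathways also control. Of 51 tested genes 43 lay above 0, against 51.9% of all genes, with a median of 0.064. Members separated higher were 19 and lower 1, beside 7.8% and 8.11% of all genes. In the edgeR quasi-likelihood test 7 had an unadjusted p under 0.05, all higher, beside 1.75% of all genes. That test called none at an adjusted p under 0.05. The library medians were 0.063, 0.049 and 0.068, with 0.008 between the untreated libraries. GDF15 has the list's largest fold change and is counted among the p53 targets too. ATF3, a stress-induced repressor, stood at 6.81, 6.23 and 5.74 CPM at 24 h, against 4.16 and 4.94 CPM. DDIT4, an inhibitor of mTORC1 that hypoxia also induces, stood at 72.9, 78.9 and 74.2 CPM, against 66.2 and 62.6 CPM, and TRIB3, a pseudokinase that feeds back on ATF4, at 31.7, 33.1 and 33.0 CPM, against 30.4 and 24.9 CPM. ASNS, asparagine synthetase, stood at 163, 166 and 182 CPM, against 160 and 149 CPM. Each of these was separated, with log2 fold changes from 0.14 (ASNS) to 0.46 (ATF3). CBS, of the transsulfuration pathway, was separated at 82.9, 91.2 and 80.0 CPM, against 71.0 and 72.2 CPM, but shares its sequence with the listed copy CBSL (0.26), so that the split of reads between them is uncertain. ATF4 itself overlapped, at 255, 253 and 262 CPM, against 239 and 254 CPM. The amino acid transporters gave no shift, with 4 of 8 genes above 0, and SLC7A1, a cationic amino acid transporter, was separated on the lower side (-0.12).

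The interferon list was low in expression and mixed in content. Of 51 listed genes 10 were not tested, among them OAS1, OASL and RSAD2 with 0 or 1 count in all at 24 h and 0 in untreated cells. Of the 41 tested, 30 lay above 0, against 51.9% of all genes, with a median of 0.088. Members separated higher were 9 and lower 2, beside 7.8% and 8.11% of all genes. IRF1, a transcription factor of the interferon response, stood at 20.0, 23.4 and 20.1 CPM at 24 h, against 16.2 and 16.1 CPM, a log2 fold change of 0.39 ± 0.11 (SE), and IFI35 at 8.91, 9.12 and 7.77 CPM, against 6.24 and 6.35 CPM (0.45). PSMB8, of the immunoproteasome, stood at 27.8, 26.0 and 26.5 CPM, against 22.9 and 24.1 CPM. The antiviral effectors IFIT1 and ISG15 overlapped: IFIT1 stood at 13.2, 8.58 and 13.7 CPM, against 12.9 and 10.3 CPM, and ISG15 at 12.4, 14.7 and 19.0 CPM, against 12.5 and 13.7 CPM. The 28 antiviral effectors had a median of 0.082 with 5 separated higher and 2 lower, the 8 antigen presentation genes 0.090 and the 5 regulators 0.137. All 8 tested genes of cytosolic nucleic acid sensing overlapped, with log2 fold changes between -0.06 and 0.05, MB21D1 (cGAS) and TMEM173 (STING) included.

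Genes closest to the action of ddC showed little difference. The 39 genes of mtDNA maintenance and transcription had a median of -0.007. Members separated higher were 2 and lower 5, beside 7.8% and 8.11% of all genes. By role, the 13 replisome genes had a median of -0.042, with 10 below 0, 1 separated higher and 2 lower. The 12 transcription and nucleoid genes had a median of 0.032 and the 14 RNA processing genes 0.023. TWNK, the mtDNA helicase, stood at 13.9, 15.5 and 14.3 CPM at 24 h, against 17.1 and 17.6 CPM, and TFAM, which packages mtDNA, at 47.5, 39.0 and 45.5 CPM, against 49.3 and 48.7 CPM; both were separated, with log2 fold changes of -0.25 ± 0.11 and -0.16 ± 0.09 (SE). POLG, the catalytic subunit of polymerase gamma, stood at 56.0, 62.2 and 47.7 CPM, against 54.9 and 61.8 CPM, and SSBP1, the mitochondrial single-strand binding protein, at 92.1, 83.0 and 95.3 CPM, against 94.1 and 90.7 CPM. Both overlapped.

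The 28 tested genes of ddC uptake, phosphorylation and dNTP turnover had a median of -0.011. Members separated higher were 2 and lower 3, beside 7.8% and 8.11% of all genes. DCK, deoxycytidine kinase, overlapped with 53.8, 44.1 and 53.8 CPM at 24 h, against 58.6 and 49.8 CPM. SLC29A1, the equilibrative nucleoside transporter ENT1, was separated, at 18.8, 20.6 and 19.4 CPM, against 22.6 and 22.7 CPM (log2 fold change -0.21 ± 0.10, SE). CMPK1, TK2 and SAMHD1, which phosphorylate pyrimidines or hydrolyse dNTPs, lay within 0.03 of 0 on the log2 scale.

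Nuclear-encoded respiratory genes differed most in 1 library. Complex I had a median of 0.065 with 29 of 37 genes above 0, but its library medians were 0.022, -0.002 and 0.138, the untreated libraries differed by -0.040, and the mean levels overlapped. Accessory subunits had a median of 0.072 and the 7 core subunits -0.015. Complexes II to V had a median of 0.010 and mitochondrial ribosomal proteins 0.021, each with replicate 2 below 0. Short transcripts were shifted in the same library: over 5 equal classes from the shortest to the longest transcripts the median log2 difference in replicate 3 ran from 0.087 to -0.108, in replicate 1 from 0.019 to -0.025 and in replicate 2 from -0.002 to 0.001, and the fitted fold change ran from 0.035 to -0.040. The part of transcript length in the shifts of these lists, or of any other list, was not tested.

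Among the remaining lists, fatty acid oxidation (median 0.033, 4 of 20 separated higher) and hypoxia response (0.043, 3 of 26 separated each way) had mean levels above both untreated libraries. Of all genes, 7.8% were separated higher and 8.11% lower. Over the 12 alternatives the median ran from 0.009 (without 24 h replicate 1) to 0.068 (without 24 h replicate 2) for fatty acid oxidation and from -0.002 (without 24 h replicate 3) to 0.058 (without untreated replicate 1) for hypoxia response. CPT2, a carnitine palmitoyltransferase, stood at 24.5, 26.1 and 23.6 CPM at 24 h, against 21.4 and 21.8 CPM, and EPAS1, which encodes HIF-2 alpha, at 363, 380 and 406 CPM, against 340 and 342 CPM. Collagens and matrix genes had library medians of -0.010, 0.091 and 0.027. The contractile list was centred on -0.001, and 7 of its 29 genes were separated higher, beside 7.8% of all genes. ACTA2, smooth muscle actin, was one of these, at 521, 509 and 536 CPM at 24 h, against 488 and 458 CPM. The summed level of 6 smooth muscle markers, ACTA2 among them, was 1184, 1138 and 1158 CPM at 24 h, against 1093 and 1043 CPM, with none at 0 throughout, so that the groups did not overlap. ACTA2 and ACTG2 made up most of that sum, while MYH11 (5 to 14 counts per library) and DES (7 to 9) were near the floor. ACTA2, ACTG2, CNN1 and LMOD1 are themselves among the separated contractile genes. The sum therefore repeats their values and could not be tested apart from them. The medians of ER stress, NRF2 targets, glycolysis, the TCA cycle, NF-kB, TGF-beta signalling, immediate early, lipid synthesis, lysosome, heat shock, mitochondrial chaperone and translation factor genes lay between -0.033 and 0.033, with overlapping means. HMOX1, the heme-degrading NRF2 target, was separated within its list, at 56.4, 57.3 and 54.3 CPM, against 50.1 and 47.4 CPM.

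Outside the lists, genes with small unadjusted p-values and separated libraries on the higher side included IL11RA, the interleukin-11 receptor, at 14.5, 18.6 and 15.1 CPM at 24 h, against 10.1 and 11.7 CPM (log2 fold change 0.56), FAM43A at 11.9, 13.5 and 14.8 CPM, against 9.63 and 9.88 CPM (0.46), and STOM, the membrane protein stomatin, at 234, 233 and 258 CPM, against 214 and 194 CPM (0.24). On the lower side, FAM196B stood at 21.1, 21.1 and 20.0 CPM, against 27.8 CPM in both untreated libraries (-0.42). STC1, the secreted glycoprotein stanniocalcin-1, stood at 88.4, 96.8 and 107 CPM, against 122 and 121 CPM (-0.32), and HMGA2, an architectural chromatin protein of fetal cells, at 264, 236 and 250 CPM, against 292 and 285 CPM (-0.21). SAAL1 (-0.32), SSX2IP (-0.27) and FPGT-TNNI3K (-0.67), a read-through of neighbouring genes whose reads cannot be assigned with certainty, were the others. At an average log2 CPM of 1 or more, the largest separated fold changes outside the lists came from genes near that limit. On the higher side these were ZNF891, SCUBE2, NUDT13, RASGRP3 and the pseudogene PMS2CL, at 0.72 to 0.91. On the lower side they were RAPGEF4 (-0.82) and TMEM91 (-0.75), with E2F2 of the DNA replication list at -0.81. The average log2 CPM runs over all 14 libraries. SNX22, also separated lower, reached 1 and passed the filter on low counts through 33 to 55 counts at 72 and 96 h. It had 3, 3 and 0 counts at 24 h, against 6 and 17, and lies opposite the abundant PPIB, of whose counts its own made up at most 0.0478% at 24 h, against 0.0773% and 0.237% in untreated cells.

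Later times place the 24 h values in sequence, with the caution that every comparison to untreated cells shares the same 2 libraries. Against untreated cells, edgeR's quasi-likelihood test called 1 gene (0.00748%) higher and 0 lower at 48 h, 19 (0.142%) higher and 5 (0.0374%) lower at 72 h, and 477 (3.57%) higher and 282 (2.11%) lower at 96 h. The list medians at 24, 48, 72 and 96 h were 0.165, 0.210, 0.217 and 0.346 for p53 targets and -0.121, -0.081, -0.133 and -0.269 for DNA replication and G1/S. For ATF4 targets they were 0.064, -0.011, 0.135 and 0.282, with 48 h on the other side of 0. Interferon-stimulated genes had 0.088, 0.035, 0.055 and 0.122, ribosome biogenesis -0.052, -0.053, -0.061 and -0.145, and hypoxia response 0.043, 0.044, 0.152 and 0.377.

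**Figure D5:**
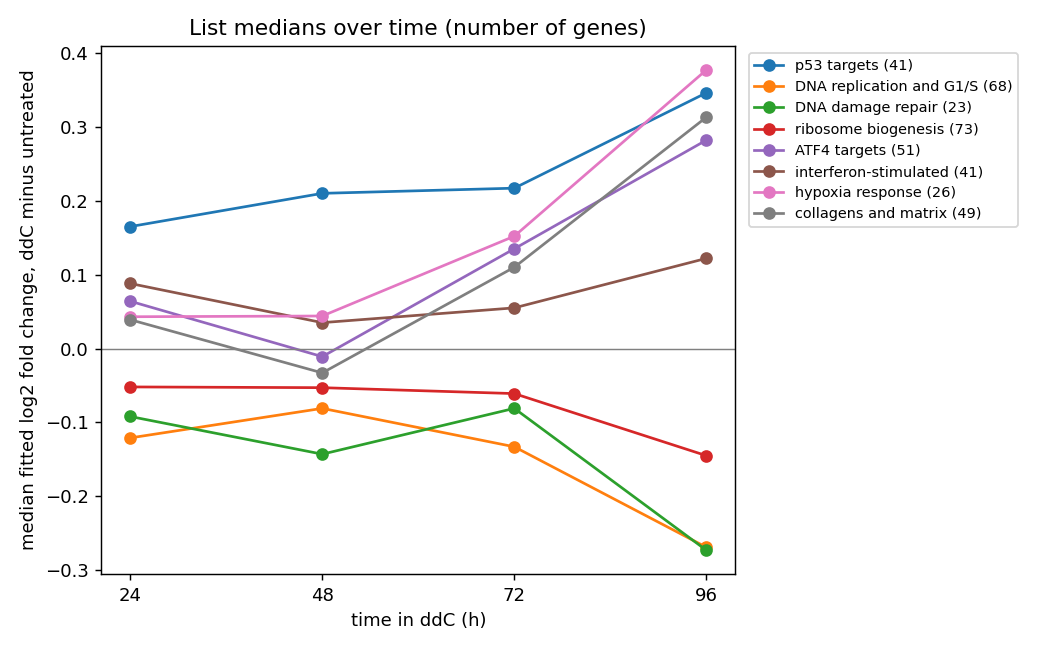
Median fitted log2 fold change of 8 gene lists against untreated cells, by hours in ddC (24, 48, 72 and 96 h); each point is a median over the list's tested genes, and all times share the 2 untreated libraries. p53 targets lie at 0.165 or above from 24 h on, DNA replication and G1/S and DNA damage repair genes lie below 0 at every time, and hypoxia, matrix and ATF4 genes lie within 0.07 of 0 until 48 h.

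Tests between ddC times showed how far 24 h was from the end of the course. They do not use the untreated libraries, but all of them share the 3 libraries at 24 h. edgeR's quasi-likelihood test called 0 genes in either direction between 48 and 24 h, 32 higher (0.239%) and 4 lower (0.0299%) between 72 and 24 h, and 345 higher (2.58%) and 83 lower (0.621%) between 96 and 24 h. Between 24 and 96 h CDKN1A rose by 0.58 (log2; adjusted p = 2.9e-05), as did GDF15 (0.78; adjusted p = 0.000748), whereas the differences of FDXR (0.24; adjusted p = 0.248) and BBC3 (0.42; adjusted p = 0.0593) did not pass the threshold. In the p53 list 8 of 41 genes rose and 0 fell between 24 and 96 h. In the DNA replication list 14 of 68 fell and 0 rose, MCM7 by 0.34 and FAM111B by 0.76. ATF4 targets had 22 of 51 genes that rose, hypoxia response 17 of 26, collagens and matrix 21 of 49 and glycolysis 13 of 23, with 0 that fell in each of these 4 lists. The interferon list had 1 of 41 that rose and 0 that fell, and ribosome biogenesis 0 in either direction.

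For some genes the 24 h level lay below both the untreated and the later ones. HMGA2 and INHBA were named for their low values at 24 h. Tests against later times use the same 24 h libraries, so this choice favours a later rise. HMGA2 had log2 fold changes against untreated cells of -0.21, 0.02, 0.05 and 0.06 at 24, 48, 72 and 96 h, and exceeded its 24 h level by 0.25 at 72 h (adjusted p = 0.0435, edgeR's quasi-likelihood test) and 0.27 at 96 h (adjusted p = 0.00347). INHBA, which encodes a subunit of activin, had -0.10, -0.04, 0.15 and 0.30 over the same times. CCND1 had -0.11, 0.05, 0.02 and -0.02, with a difference between 96 and 24 h of 0.09 (adjusted p = 0.307).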

How the data were processed

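Libraries of polyadenylated RNA were prepared with a stranded kit, per the labels' protocols. The submitters' processing notes name STAR 2.5.3a, HOMER and the build hg19. The authors deposited raw counts per gene for 14 libraries (9398703 to 12147402 counts per library), and each column was joined to its sample by title. Whether the counting used strand is not given in the sources used here; VIM-AS1 had 0.155% of the counts of VIM on the other strand.

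The members and gene lists were chosen with earlier results of these data known. Counts were tested with edgeR 4.0.16 in R 4.3.3 (quasi-likelihood, robust, TMM factors, filterByExpr with a minimum count of 10 and a minimum total of 15) in 1 fit that held all 14 libraries and gave each group a mean, so that groups of 3 and 2 libraries share 1 estimate of the spread. Adjusted p is Benjamini-Hochberg over all 13371 tested genes, two-sided, threshold 0.05. The SE is the log2 fold change divided by the square root of F. CPM is TMM-scaled. List means use log2 CPM with a prior count of 3. The edgeR test was also run on simulated counts, drawn for each gene independently. That run held no differences shared by the genes of a library, so it cannot bear on list shifts or separation. Named genes are, among separated genes whose average log2 CPM reached 1, the 10 each way with the smallest unadjusted p and the 5 each way with the largest fold change, then for each list the 3 members of smallest p on the side of its median, any called gene, and a fixed panel; other list members were named after their values were seen, and some results are not reported here. Promoters are RefSeq windows on GRCh38.p14, matched by symbol for 10627 tested genes. Alternatives were DESeq2 1.42.0, limma-voom (limma 3.58.1), median-ratio size factors, no filter, a replicate block, the 5 compared libraries alone, a nuclear RNA score as covariate, and leaving out each of the 5 libraries.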

Additional observations from a re-analysis of the deposited data

Results flagged for a closer look

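Named genes whose level differed between 24 h and a later time in ddC, by edgeR's quasi-likelihood test (Benjamini-Hochberg adjusted p under 0.05), are given as log2 differences, later time minus 24 h. These contrasts do not use the untreated libraries, but all of them share the 3 libraries at 24 h. Many of the named genes were chosen by their 24 h values, which favours a later move back towards untreated levels.

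At 72 h, HMGA2 exceeded its 24 h level by 0.253, INHBA by 0.242 and ACTA2 by 0.6. At 96 h the same 3 genes exceeded it by 0.272, 0.395 and 0.891 in that order. Among p53 targets, the 96 h difference was 0.581 for CDKN1A, 0.422 for BTG2 and 0.776 for GDF15. Among ATF4 targets it was 0.264 for ATF4, 0.266 for ASNS, 0.381 for TRIB3, 0.475 for STC2, 0.654 for DDIT4 and 0.392 for CBS, with 0.382 for its copy CBSL.

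Among DNA replication and repair genes the 96 h difference was -0.763 for FAM111B, -0.536 for CCNE2, -0.336 for CDC25A, -0.356 for MCM2, -0.338 for MCM3, -0.257 for MCM5, -0.364 for MCM6, -0.339 for MCM7 and -0.269 for MSH6. Other 96 h differences were 0.424 for EPAS1, 0.465 for P4HA1, 0.277 for TPI1, 0.285 for LUM, 0.302 for COL1A1, 0.262 for GABARAPL1, 0.464 for FAM43A, -0.178 for HSP90AB1 and -0.665 for AKR1C1, an NRF2 target that stood at 9.43, 10.12 and 11.04 CPM at 24 h, against 9.19 and 8.29 CPM in untreated cells.

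SNX22 had a difference between 96 and 24 h of 4.499 at very low counts: 3, 3 and 0 at 24 h. It passed the filter on low counts through its 72 and 96 h libraries, with 33 to 55 counts, so it was tested because it is high there. As a percentage of the counts of PPIB on the opposite strand its counts were 0.0478, 0.0432 and 0 at 24 h, 0.0513, 0.0772 and 0.406 at 48 h, 0.422, 0.489 and 0.469 at 72 h, and 0.628, 0.545 and 0.59 at 96 h. The part of opposite-strand reads in this result was not tested.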

How the results depend on the processing

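The count of genes called was 0 with median-ratio size factors, limma-voom, the 5 compared libraries alone and the replicate block, and 1 (CDKN1A each time) with DESeq2 (adjusted p = 0.00456), without the filter (0.0359) and with the nuclear RNA score as covariate (1.2e-05); leaving out 1 library gave 0 to 1, CDKN1A being called without 24 h replicate 1 (adjusted p = 0.029). Genes at an unadjusted p under 0.05 numbered 210 with DESeq2, 270 with the 5 libraries alone and 1030 with the nuclear RNA score, and 347 to 585 on leaving out 1 library; the cause was not tested. The median of p53 targets was 0.144 to 0.166 and that of ATF4 targets 0.050 to 0.067 on leaving out 1 library, and 0.053 for ATF4 targets with the replicate block. Medians kept their sign under all 12 alternatives for p53 targets, DNA replication and G1/S (-0.155 to -0.098), interferon-stimulated genes (0.059 to 0.109), ribosome biogenesis (-0.086 to -0.051), DNA damage repair (-0.165 to -0.067) and complex I (0.040 to 0.084), but not for hypoxia response, which was -0.002 without 24 h replicate 3. MALAT1 turned from 0.24 to -0.33 without 24 h replicate 2 or without untreated replicate 1. Replicate numbers are shared by the labels, and nothing shows that they pair the libraries: same-numbered libraries deviated from their group means with r = -0.131 (number 1) and 0.404 (number 2), values that are tied to each other because the deviations of 2 untreated libraries mirror each other. With the replicate block 0 genes were called and 456 had an unadjusted p under 0.05. With groups of 3 and 2 libraries the median SE of a log2 fold change was 0.109 over tested genes, and the median size of the differences was 0.066 where the average log2 CPM reached 1.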
